A study of Mus musculus with 2 samples.

Results

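Ribosomal protein genes encode the proteins that assemble with ribosomal RNA into the large and small subunits of the cytosolic ribosome, the machine that translates messenger RNA. Their messages are among the most abundant in most cells, and many of them carry a run of pyrimidines at the very 5′ end, the terminal oligopyrimidine tract, through which nutrient and growth signals adjust their translation. Among blood cells, resting lymphocytes are known for a large proportion of such messages and mature neutrophils for a small one.

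The members were the rows of the feature table whose symbol is Rpl or Rps, a number and at most 1 of the letters a, l or x, together with Rplp0, Rplp1, Rplp2 and Rpsa. These were 80 of 31053 genes, 49 of the large and 31 of the small subunit. They lie on 19 chromosomes, and 4 of them (Rps4x, Rpl10, Rpl36a and Rpl39) on the X chromosome. The rule took in 4 paralogs whose symbol ends in l (Rps27l, Rpl3l, Rpl10l and Rpl39l), and it left out related genes, of which 7, such as Rps3a1, Fau, Rack1 and Rpl36al, were followed as a list of their own. Many members have processed copies elsewhere in the genome with nearly the same sequence, and reads that match a copy equally well can be lost or split, so the levels of single members are uncertain to that extent.

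The data were single-cell transcriptomes of live CD45+ cells sorted from B16 melanoma tumours, a transplanted mouse melanoma, grown in mice 8 weeks of age, with the cells of several animals pooled into each library. The first library was labelled WT (Mettl3 fl/fl Lyz2+/+) and the other KO (Mettl3 fl/fl Lyz2cre/+), so both carried the floxed alleles and only the KO animals carried Cre, expressed from the Lyz2 locus in macrophages, monocytes and granulocytes. METTL3 is the enzyme that writes N6-methyladenosine on messenger RNA. There was 1 library per genotype, so genotype and library cannot be told apart, no test between them was possible, and every interval below is a 95% interval that covers counting error only.

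The WT library held 5895 cell barcodes and the KO library 8446, with 45963969 and 54052317 unique molecular identifiers (UMIs, counted molecules), and 5405 and 7625 cells were kept after filtering. The median cell held 4137 UMIs in the WT and 3563 in the KO library, and 13 barcode sequences occurred in both. Cells were assigned to 11 classes by marker genes, named for the cell type they resemble (for example "macrophage-like"), and 13.6% and 14.1% of cells stayed without a class. In both libraries all markers of each class were above 50 CPM (UMIs per 1000000 UMIs of that class), but the same markers set the classes. In conventional DC 2-like cells 2 (WT) and 3 (KO) of 5 markers were highest in their own class. It was 3 of 6 in monocyte-like and 3 of 4 in conventional DC 1-like cells in both libraries, and all of them in the other classes. Melanoma-like cells were present in spite of the CD45+ sort. In macrophage-like cells Mettl3 stood at 9.77 CPM in the WT and 10.8 CPM in the KO library. A 3′ tag need not lie in the deleted part, so this does not check the labels. Lyz2, where Cre is inserted, stood at 5924 and 2688 CPM in the same cells.

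A member's first transcribed bases are shown first because they are the feature by which this family is best known. The RefSeq table of gene starts (GRCm38.p6) held an entry for 60 of the 80 members. A start of C followed by at least 4 bases that are each C or T was found in 13 of these 60 (21.7%), against 813 of 27025 genes of the whole table (3.01%). The 13 were Rpl14, Rpl15, Rpl28, Rpl35, Rpl35a, Rpl38, Rplp2, Rps6, Rps10, Rps15a, Rps18, Rps21 and Rps27. In each window of 30 bases below, the first 5 transcribed bases are in capitals.
Rps27: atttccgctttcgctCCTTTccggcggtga
Rps15a: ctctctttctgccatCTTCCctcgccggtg
Rpl38: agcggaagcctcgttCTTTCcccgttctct
Rps27l, first start: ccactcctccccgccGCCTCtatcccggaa
Rps27l, second start: accatgggcttcaggGTCACtaacgggcct
Rpl27: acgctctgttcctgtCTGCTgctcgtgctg
The windows are Rps27 at chr3:90213634-90213663 on the minus strand, Rps15a at chr7:118116133-118116162 on the minus strand, and Rpl38 at chr11:114668565-114668594 on the plus strand. On the plus strand too are the Rps27l windows at chr9:66946071-66946100 and chr9:66946398-66946427 and the Rpl27 window at chr11:101442230-101442259. Rps27 and Rps27l are shown because their balance varied widely between cell classes, Rps15a and Rpl38 as further tracts, and Rpl27 because it stood lowest in the KO library in most classes. Rps27 begins with a tract in this annotation and neither start of its paralog Rps27l does. An annotated start can lie some bases from the true cap site, so a start without a tract says only that these letters are not at the annotated position.

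Members took up a large and class-dependent part of all UMIs. Over all kept cells they held 21.1% of UMIs in the WT and 20.7% in the KO library. T-like cells held 29.7% (interval 29.6 to 29.7) and 29.1% (29.02 to 29.11). Natural killer (NK)-like cells held 28.7% and 26.6%, and B-like cells 31.97% and 25.6%. The lymphoid classes thus lay between 25.6% and 31.97% in either library, above the range of 18.2% to 19.9% over macrophage-like and monocyte-like cells.

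The dendritic cell (DC) classes lay between them. Conventional DC 1-like cells held 25.1% and 23.3%, conventional DC 2-like cells 25.1% and 24.5%, plasmacytoid DC-like cells 25.0% and 23.3%, and mature DC-like cells 21.2% and 20.8%. Melanoma-like cells held 24.9% and 25.6%. Macrophage-like cells held 19.2% and 18.4%, and monocyte-like cells 19.9% and 18.2%.

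Granulocyte-like cells stood far below every other class. Members made up 6.31% of their UMIs (6.26 to 6.36, n = 546 cells) in the WT and 7.21% (7.12 to 7.30, n = 233 cells) in the KO library. That was 0.328 and 0.392 times the share in macrophage-like cells of the same library. The median granulocyte-like cell held 4.12% and 4.64%, and its 95th percentile, 10.03% and 12.2%, lay below the median of each other class.

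**Figure D1:**
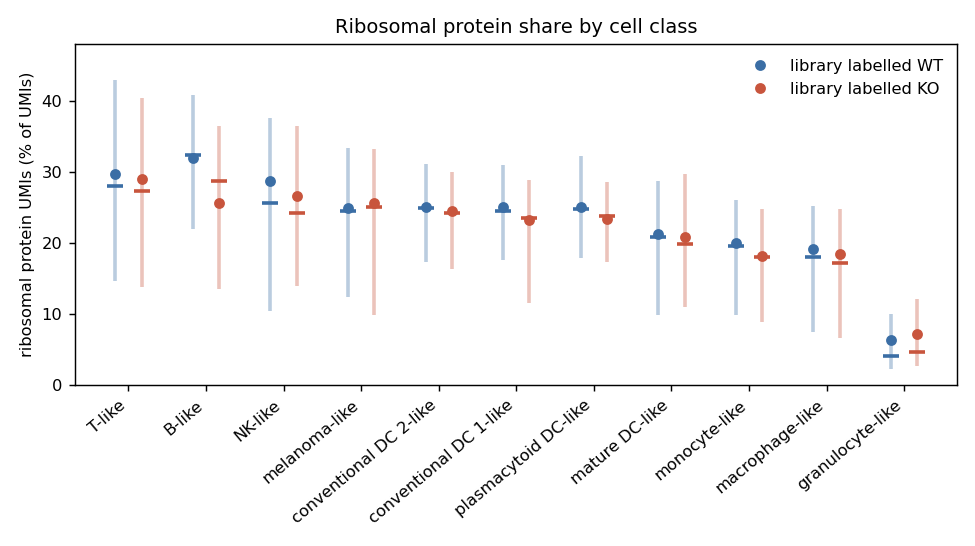
Share of UMIs from the 80 members in each cell class. The points give the share over the summed UMIs of a class, the short bars the median cell and the pale lines the 5th to 95th percentile of cells. T-like cells lie at 29.7% and 29.1%, macrophage-like cells at 19.2% and 18.4%, and granulocyte-like cells lowest at 6.31% and 7.21%.

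In macrophage-like and monocyte-like cells the share rose with the number of UMIs per cell. In conventional DC 2-like cells only the bins from 2000 to 16000 UMIs held at least 20 cells, and there it lay between 23.7% and 25.5%. Over the same bins the share in monocyte-like cells went from 19.2% to 20.9% (WT) and from 17.9% to 19.2% (KO). In macrophage-like cells of the WT library it went from 9.39% in cells of 500 to 1000 UMIs to 20.1% in cells of 16000 or more, and in those of the KO library from 9.62% to 19.6%. In monocyte-like cells it went from 9.96% to 21.4% in the WT and from 12.0% to 19.4% in the KO library. T-like cells showed most of the rise below 2000 UMIs, from 21.5% to 27.3% in the WT library, and lay between 27.0% and 30.9% in both libraries from 1000 UMIs upward. T-like cells stood above macrophage-like cells at matched depth as well: among cells of 4000 to 8000 UMIs, T-like cells held 28.9% and 27.3%, and macrophage-like cells 17.3% and 16.8%.

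Most granulocyte-like cells were shallow, with medians of 1340.5 and 1070 UMIs, and the deeper ones were mixed. The 450 and 202 cells under 2000 UMIs held 4.38% and 4.88%, and the 96 and 31 cells of 2000 UMIs or more 9.32% and 11.5% of their summed UMIs. In the WT library the higher sum came from few cells: the 73 cells of 2000 to 4000 UMIs held 4.53%, the 16 and 7 cells above these 12.9% and 17.1%, and the median cell of 2000 UMIs or more 3.99%, against 4.14% below 2000. In the KO library the medians were 8.19% and 4.54%. The summed level of the 8 macrophage markers was 902 and 681 CPM in the shallower and 2360 and 1506 CPM in the deeper granulocyte-like cells, and the part of this in the share was not tested. At 1000 to 2000 UMIs, granulocyte-like cells held 4.29% and 4.82%, and macrophage-like cells of the same depth 11.2% and 12.3%.

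**Figure D2:**
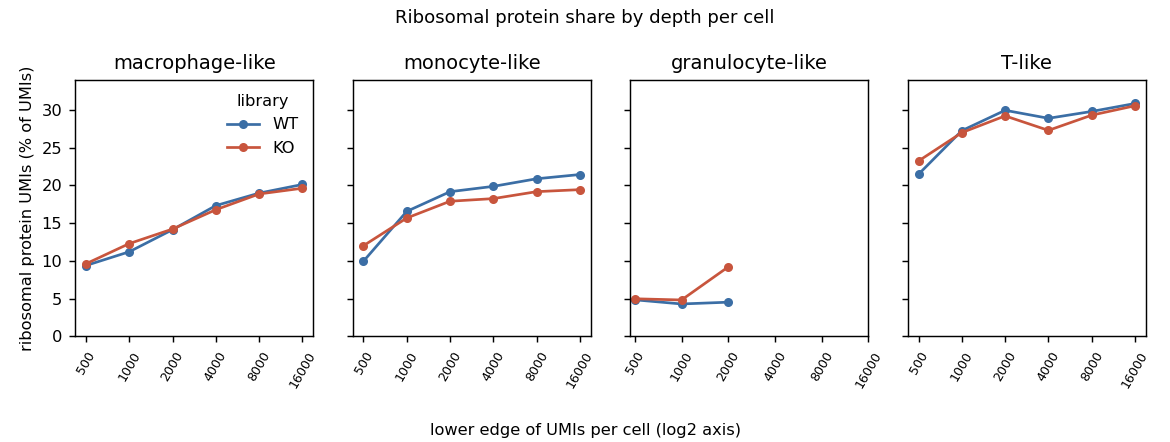
Share of UMIs from members against the lower edge of the bin of UMIs per cell, for bins of at least 20 cells, in both libraries. Macrophage-like cells climb from 9.39% to 20.1% (WT) and from 9.62% to 19.6% (KO), while granulocyte-like cells under 2000 UMIs stay below 5%.

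Among T-like cells the share differed between subsets. Cells with Cd8a or Cd8b1 held 30.6% and 30.2%, and cells with Cd4 26.3% and 25.8%, the first above the second in both libraries. T-like cells with at least 2 of 7 cell cycle markers held 29.7% and 29.5% and the others 29.6% and 28.5%.

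Single members spanned a 52.0-fold range of level among the 77 with a mean of at least 50 CPM. Each molecule is tagged once at its 3′ end, so these levels are per transcript and need no division by length. Rpl41, the shortest member, stood highest at 9592 CPM in the WT and 9802 CPM in the KO library, followed by Rps29 (8902 and 9206), Rpl37a (7044 and 7465), Rps24 (5540 and 5503) and Rpl39 (5313 and 5373). These 5 made up 17.6% of member UMIs.

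At the lower end stood Rpl13a with 193 and 180 CPM and Rpl4 with 573 and 568 CPM. The member median was 2511 CPM. Rpl13a has many processed copies in the genome, and their part in its low count was not tested. Short members tended to be higher: the 10 of at most 100 residues that were measured had a median of 4850 CPM, and the 11 of at least 250 residues one of 1894 CPM. Across the 77 members Spearman's rho between coding length and level was -0.49, a description across genes that share both libraries.

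The paralogs known from muscle and testis were close to absent over all cells. Rpl3l, the muscle form of Rpl3, had 130 and 170 UMIs (3.10 and 3.60 CPM), against 1317 and 1265 CPM of Rpl3. It was less scarce in granulocyte-like cells, with 17 and 11 UMIs (18.4 and 34.1 CPM), and in mature DC-like cells, with 14 and 12 UMIs (21.6 and 15.3 CPM), than in macrophage-like cells (1.64 and 1.95 CPM). Rpl39l, the form of Rpl39 found in testis, had 135 and 122 UMIs (3.22 and 2.58 CPM). Rpl10l, which stands in for X-linked Rpl10 in male germ cells, had 0 of 41879306 UMIs in the WT library, which allows up to 0.0716 CPM, and 2 UMIs in the KO library. Of the l-named paralogs only Rps27l was expressed at a level near that of the other members, with 850 and 826 CPM.

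The stalk proteins, Rpsa and, apart from Rpl39 above, the X-linked members lay nearer the middle of the range. The stalk proteins Rplp0, Rplp1 and Rplp2, which recruit translation factors to the large subunit, stood at 2132 and 2086, 3097 and 2900, and 2517 and 2425 CPM. Rpsa, also known as the laminin receptor, stood at 2712 and 2645 CPM. Of the other X-linked members, Rps4x stood at 2362 and 2171, Rpl10 at 1390 and 1245, and Rpl36a at 1078 and 990 CPM.

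Small-subunit members supplied 44.8% of member UMIs in the WT and 44.6% in the KO library. The proportion varied little, from 42.3% in melanoma-like cells of the KO library to 48.2% in B-like cells of the WT library. Macrophage-like cells (44.6% in both) and T-like cells (45.4% and 44.9%) differed by less than 1 percentage point on the summed UMIs. With cells thinned to 1000 UMIs the means of both libraries were 44.7% and 46.6%, and among cells of 2000 to 6000 UMIs 44.6% and 46.3%.

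Nearly every member was higher in T-like than in macrophage-like cells. By more than 1.2-fold, 74 of 77 were higher and 1 lower in the WT library, where 35.8% of all 2830 genes were higher and 37.0% lower. In the KO library 74 were higher and 1 lower, against 39.1% and 34.9% of 2904 genes. The median member differed by 0.63 and 0.70 on the log2 scale, and the median gene by -0.01 and 0.06. With edgeR's TMM scaling, which lowers T-like against macrophage-like values by 0.17 and 0.18, 62 and 67 members were higher, against 27.4% and 30.3% of all genes.

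The rise was uneven. Rps27 went from 3445 CPM in macrophage-like to 8129 CPM in T-like cells of the WT library and from 3498 to 7549 CPM in the KO library, a log2 difference of 1.24 and 1.11. Rpl13a followed with 1.06 and 1.22, Rps15a with 1.11 and 1.13, and Rpsa with 0.96 and 1.06. These 4 were the most T-biased members in the mean of both libraries.

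Among the least T-biased members were Rps27l, the only one that was lower in T-like cells, at -0.59 and -0.30, then Rpl10 at 0.04 and 0.13, Rps29 at 0.27 and 0.17, and Rps25 at 0.27 and 0.39. Rpl10, a late-joining protein of the large subunit, thus stood at 1354 and 1155 CPM in macrophage-like and 1389 and 1263 CPM in T-like cells, close to level. Members whose annotated start carries a tract had a median of 0.70 (13 members) and those without one 0.65 (44 members).

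**Figure D3:**
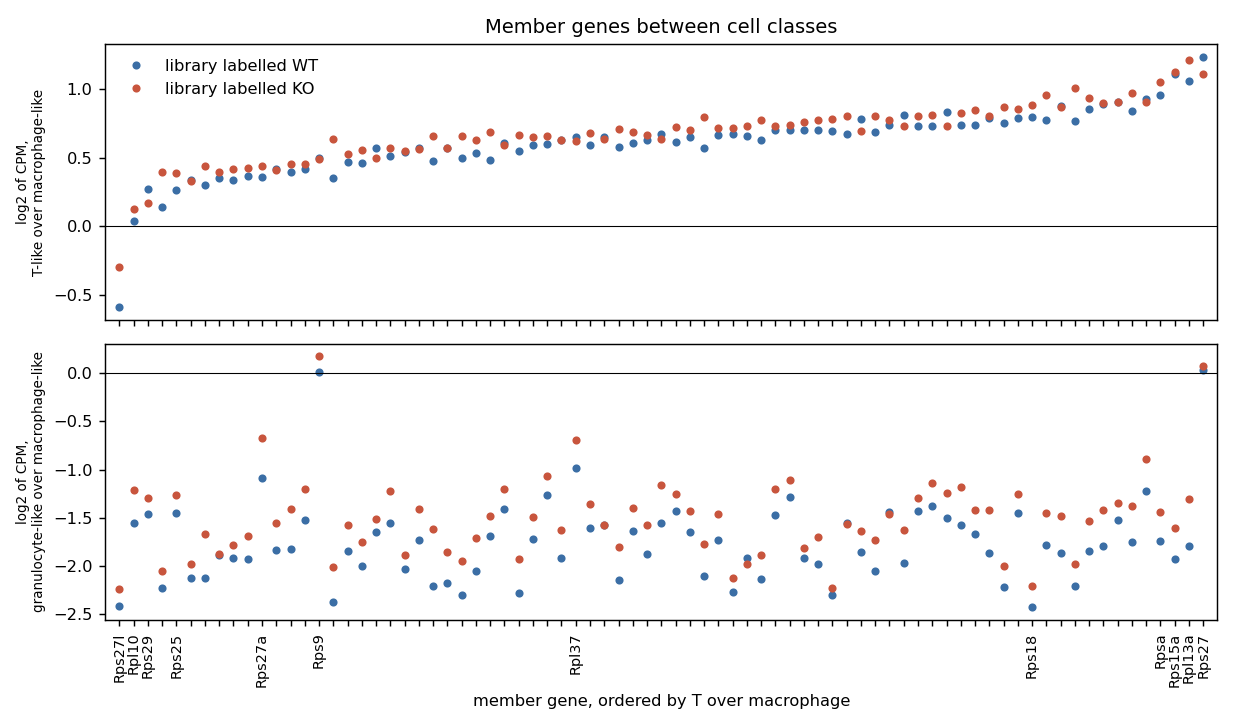
Log2 ratio of CPM in T-like over macrophage-like cells (top) and in granulocyte-like over macrophage-like cells (bottom) for each of the 77 members at 50 CPM or more, in both libraries. All but Rps27l lie above 0 in the top panel, and all but Rps9 and Rps27 lie below 0 in the bottom panel. Labels mark members at the ends of either panel.

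In granulocyte-like cells 75 of 77 members were more than 1.2-fold lower than in macrophage-like cells in each library and none was higher, where 50.5% of 2713 genes (WT) and 48.3% of 2817 genes (KO) were lower and 38.4% and 38.1% higher. The median member stood at -1.79 and -1.49 on the log2 scale against -0.28 and -0.19 for the median gene. With TMM scaling, which raises granulocyte-like against macrophage-like values by 0.41 and 0.18, 75 were again lower in each library, and 2 (WT) and 1 (KO) were higher. Of all genes 40.3% and 43.1% were then lower and 49.4% and 43.9% higher. Rps18 (-2.43 and -2.21) and Rps27l (-2.42 and -2.23) were farthest down.

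A pair of members stood apart from this loss. Rps27 had 3514 and 3672 CPM in granulocyte-like cells, against 3445 and 3498 CPM in macrophage-like cells, with log2 differences of 0.03 and 0.07 before the TMM shift. Rps9, which binds early in the assembly of the small subunit, had 2787 and 3176 CPM, with differences of 0.01 and 0.17. Next came Rpl37 at -0.99 and -0.70 and Rps27a at -1.09 and -0.67. Fau, outside the symbol rule and source of a small-subunit protein, was not lower either, with 6312 and 6339 CPM against 5083 and 4875 CPM in macrophage-like cells.

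When each member was expressed as a proportion of all member UMIs of its class, most kept nearly the same place in every class. The median range across the 11 classes was 0.62 on the log2 scale, and 12 of 77 members ranged over more than 1. The smallest ranges were those of Rpl27a (0.20), Rpl18 (0.26) and Rps23 (0.29), and the largest those of Rps27l (3.89), Rps9 (1.99) and Rpl31 (1.99). The pattern of a member across the classes was alike in both libraries, with a median correlation of 0.94 over the 11 classes, over 0.9 for 50 members and lowest, 0.62, for Rpl18. Both libraries were made and processed alike, so shared features of the protocol enter this likeness.

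Rpl31, a protein near the exit of the peptide tunnel, was highest in plasmacytoid DC-like cells with 2665 and 2458 CPM. It had 764 and 765 CPM in B-like cells and 778 and 775 CPM in macrophage-like cells. Melanoma-like cells came next with 1728 and 1641 CPM. Rps19 was highest as a proportion in mature DC-like cells, at 7195 and 7323 CPM.

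A wide pattern was the balance between Rps27 and its paralog Rps27l, small-subunit proteins of nearly the same sequence, of which Rps27l is known as a target of the tumour suppressor p53. Rps27l supplied 28.5% (27.98 to 28.97) and 24.4% (24.0 to 24.8) of the UMIs of the pair in melanoma-like cells and 25.0% and 24.5% in mature DC-like cells. Macrophage-like cells followed with 19.5% and 19.0%. These 3 classes stood apart from the rest, which lay at 11.3% or below.

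Conventional DC 1-like cells had 10.2% and 11.3%, monocyte-like cells 9.27% and 9.33%, conventional DC 2-like cells 8.69% and 7.84%, and T-like cells 6.37% and 8.10%. Granulocyte-like cells had 4.23% and 4.51%, NK-like cells 2.66% and 2.79%, plasmacytoid DC-like cells 2.12% and 2.60%, and B-like cells 0.875% and 2.39%. In this order the intervals of neighbours were apart in both libraries between mature DC-like and macrophage-like, macrophage-like and conventional DC 1-like, T-like and granulocyte-like, and granulocyte-like and NK-like cells. The other neighbours overlapped in at least 1 library.

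The level of Rps27l itself ran from 149 CPM in B-like cells of the WT library to 2339 and 2359 CPM in mature DC-like cells. Rps27 was highest in B-like (16875 and 12712 CPM), NK-like (11034 and 10896 CPM) and plasmacytoid DC-like cells (10376 and 9965 CPM), where Rps27l was low. Granulocyte-like cells had little Rps27l (155 and 174 CPM) beside 3514 and 3672 CPM of Rps27, and mature DC-like cells had 7020 and 7283 CPM of Rps27.

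**Figure D4:**
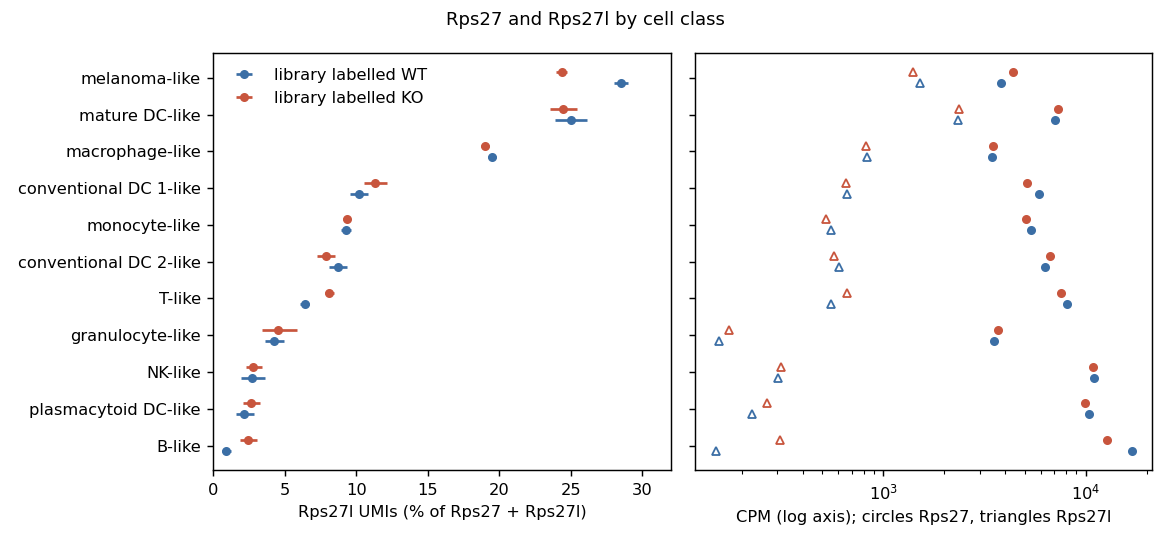
Left, Rps27l UMIs as a percentage of Rps27 and Rps27l UMIs together by cell class, with exact 95% intervals for counting error. Right, the CPM of each on a log axis. Melanoma-like (28.5% and 24.4%) and mature DC-like cells (25.0% and 24.5%) lie at the top and B-like cells (0.875% and 2.39%) at the bottom.

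Cycling T-like cells were tilted the same way. T-like cells with at least 2 cell cycle markers had 810 and 909 CPM of Rps27l, against 293 and 355 CPM in the other T-like cells, and 5236 and 4946 CPM of Rps27 against 11051 and 10874 CPM. Cycling cells were deeper, so the comparison was repeated in cells of 4000 UMIs or more. Cycling cells were still deeper among these (medians of 10608.5 and 12285.5 UMIs, against 6474 and 7148), so depth was not matched. There Rps27l stood at 828 and 932 against 418 and 574 CPM, a log2 difference of 0.98 (0.80 to 1.18) and 0.70 (0.53 to 0.87). Rps27 differed by -0.60 (-0.65 to -0.55) and -0.39 (-0.45 to -0.34). In macrophage-like cells the same split gave 895 and 884 CPM of Rps27l in cycling and 775 and 776 CPM in other cells.

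Between the libraries the share of member UMIs differed little in most classes. The log2 ratio of KO over WT was -0.06 in macrophage-like cells, -0.13 in monocyte-like cells and -0.03 in T-like cells, and it was 0.04 in melanoma-like cells. NK-like cells had -0.11, plasmacytoid DC-like cells -0.10, conventional DC 1-like cells -0.11, conventional DC 2-like cells -0.04 and mature DC-like cells -0.03. The counting intervals of these ratios leave out 0, but they hold none of the spread between animals or libraries. Markers of other lineages moved as well: the summed 7 granulocyte markers stood at 1058 and 344 CPM in macrophage-like and 742 and 478 CPM in monocyte-like cells, and the 8 macrophage markers at 803 and 566 CPM in T-like and 1470.5 and 973 CPM in granulocyte-like cells. Their part in these ratios was not tested.

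In monocyte-like cells the KO library was lower in 5 of 6 bins of UMIs per cell, by -0.08 to -0.14, and higher in the shallowest (0.27, with 33 and 86 cells). In macrophage-like cells it was lower in the 3 bins from 4000 UMIs upward, by -0.01 to -0.05, and higher in the 3 below, by 0.01 to 0.13. The medians of UMIs per cell were 9648 and 6988 in these cells. T-like cells were lower in the KO library in 5 of 6 bins, by -0.01 to -0.08, and higher by 0.11 in the shallowest.

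Granulocyte-like cells went the other way, with a log2 ratio of 0.19 (0.17 to 0.22) of KO over WT, but with TMM scaling, which shifts this class by -0.25, the value was -0.05. Under 2000 UMIs per cell it was 0.16. With classes taken from clusters of cells it was 0.01. Other alternatives raised it: 0.32 after thinning to 1000 UMIs per cell, 0.42 with a wider gate margin and 0.93 among cells of 2000 to 6000 UMIs. B-like cells had the largest gap, -0.32, and it shrank to -0.15 without the 1 WT and 10 KO cells that held at least 5 UMIs of Jchain, a gene of antibody-secreting cells. Those 10 cells held 17.5% member UMIs. Mitochondrial genes, a sign of cell quality, made up 1.29% and 1.48% of UMIs in macrophage-like cells, 1.28% and 1.32% in monocyte-like, 1.02% and 1.19% in granulocyte-like and 1.41% and 1.51% in T-like cells, higher in the KO library in each. The nuclear RNA Malat1 stood at 8690 and 8776 CPM in macrophage-like and 29273 and 27143 CPM in granulocyte-like cells. It stood at 11173 and 11043 CPM in monocyte-like, 11088 and 9356 CPM in T-like and 25773 and 21580 CPM in B-like cells. The part of either in the shares was not tested.

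Few members passed 1.2-fold between the libraries in macrophage-like and monocyte-like cells. In macrophage-like cells none of 77 was higher and 1, Rpl27, was lower, where 6.92% of 2803 genes were higher and 2.93% lower. Among macrophage-like cells of 2000 to 6000 UMIs none was lower, with Rpl27 at -0.20. In monocyte-like cells none was higher and 5 were lower, Rpl27, Rps4x, Rps21 and Rpl21 among them, which is 6.49% of members against 5.88% of 2908 genes lower and 13.9% higher. With TMM scaling 3 were lower, where 4.72% of genes were lower and 15.3% higher, and with member UMIs left out of the total 9. On the summed UMIs the small displacement was broad: 69 members in macrophage-like and 72 in monocyte-like cells lay below 0, against 48.5% and 46.7% of all genes. The member medians were -0.09 and -0.14, against 0.00 and 0.02 for all genes. Among macrophage-like cells of 2000 to 6000 UMIs the log2 ratio of the member share was -0.02.

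The members at the ends in macrophage-like cells were Rpl27 (954 to 748 CPM, log2 -0.35, interval -0.38 to -0.32), Rpl10 (1354 to 1155 CPM, -0.23) and Rps7 (1895 to 1645 CPM, -0.20) on the lower side. On the higher side stood Rps29 (8707 to 9120 CPM, 0.07), Rpl37a (6631 to 6902 CPM, 0.06) and Rpl41 (9329 to 9665 CPM, 0.05). In monocyte-like cells Rpl27 went from 959 to 763 CPM (-0.33), Rps4x from 2254 to 1811 CPM (-0.32) and Rps21 from 2775 to 2270 CPM (-0.29), while Rps15 (0.09), Rpl5 (0.03) and Rps6 (0.02) were the highest.

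In granulocyte-like cells 13 members were past 1.2-fold higher and none lower, 16.9% of the 77, where 30.3% of 2474 genes were higher and 17.6% lower. With TMM scaling none was higher and 6 were lower, where 13.4% of genes were higher and 37.6% lower, and with classes taken from clusters none was higher. With a wider gate margin 61 were higher, and among cells of 2000 to 6000 UMIs (80 and 29 cells) 76. Apart from TMM scaling, no count over all genes was made under these alternatives. Rpl14 (216 to 304 CPM, log2 0.49, interval 0.13 to 0.85), Rpl37a (2259 to 3098 CPM, 0.46) and Rps27a (1974 to 2575 CPM, 0.38) were at the upper end, and Rpl21 (340 to 297 CPM, -0.19) and Rps3 (584 to 527 CPM, -0.15) near the lower.

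In T-like cells 1 member, Rps27l, was higher (553 to 666 CPM, log2 0.27, interval 0.18 to 0.36) and none lower, against 9.67% and 5.16% of 2792 genes. This value lies close to the 1.2-fold limit. With TMM scaling, which shifts this class by only -0.01, none was higher or lower, against 8.10% and 5.46% of genes. Cycling cells were 125 of 632 T-like cells in the WT and 145 of 766 in the KO library, but supplied 1510862 of 3006950 and 1916027 of 3416558 UMIs, a larger part in the KO library. The part of this in the value was not tested. Rps2 followed among the higher members (0.11). Rps21 (4614 to 3965 CPM, -0.22), Rps7 (3281 to 2874 CPM, -0.19) and Rpl27 (1633 to 1453 CPM, -0.17) were lowest.

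In B-like cells 48 of 77 members were lower and 1 higher, against 36.8% and 25.4% of 2582 genes. Without the cells of at least 5 Jchain UMIs 19 of 77 were lower and 1 higher, against 22.3% and 35.5% of 2811 genes. The 1 higher member was again Rps27l, with 38 UMIs in the WT and 67 in the KO library, 14 of them in 1 cell, and with 37 and 27 UMIs (0.28) without the Jchain-high cells. In the remaining classes with at least 100 cells in each library, no member was higher. The lower members were 1 each in conventional DC 1-like (9.30% of 2516 genes lower and 18.1% higher), conventional DC 2-like (11.6% of 2741 lower and 16% higher) and melanoma-like cells (15.8% of 2844 lower and 9.77% higher), and 2 in mature DC-like cells (13.2% of 2341 lower and 20.3% higher).

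Rpl27, a protein of the large subunit, was lower in the KO library in all 11 classes. It went from 2021 to 1621 CPM in melanoma-like cells (log2 -0.32, interval -0.35 to -0.28), from 1105 to 850 CPM in mature DC-like cells (-0.38), from 1580 to 1135 CPM in NK-like cells (-0.48) and from 1443 to 946 CPM in B-like cells (-0.61). In granulocyte-like cells the values were 277 and 273 CPM (-0.02, interval -0.39 to 0.33), and in the other 10 classes the interval was below 0. The granulocyte-like value kept its sign in 3 of 10 alternatives and reached 0.64. It was the lowest of the 77 members in 7 of 11 classes.

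Rpl21, Rps3 and Rps12 were also lower in the KO library in all 11 classes, with the interval below 0 in 8, 6 and 7 of them. Rps3 rose above 0 under some alternatives in macrophage-like, granulocyte-like and T-like cells. Rpl21 had 925 and 819 CPM in macrophage-like cells (-0.18) and 1541 and 1401 CPM in T-like cells (-0.14). Rps12 had 1595 and 1492 CPM (-0.10) and 2509 and 2316 CPM (-0.12) in the same classes. Of 908 genes at 50 CPM or more in all 9 classes with at least 100 cells per library, 16 (1.76%) were lower in the KO library in every class, 5 of them members (6.49% of 77). A further 27 genes (2.97%) were higher in every class, none of them a member. Rpl37a was below the member median in none of the 11 classes.

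**Figure D5:**
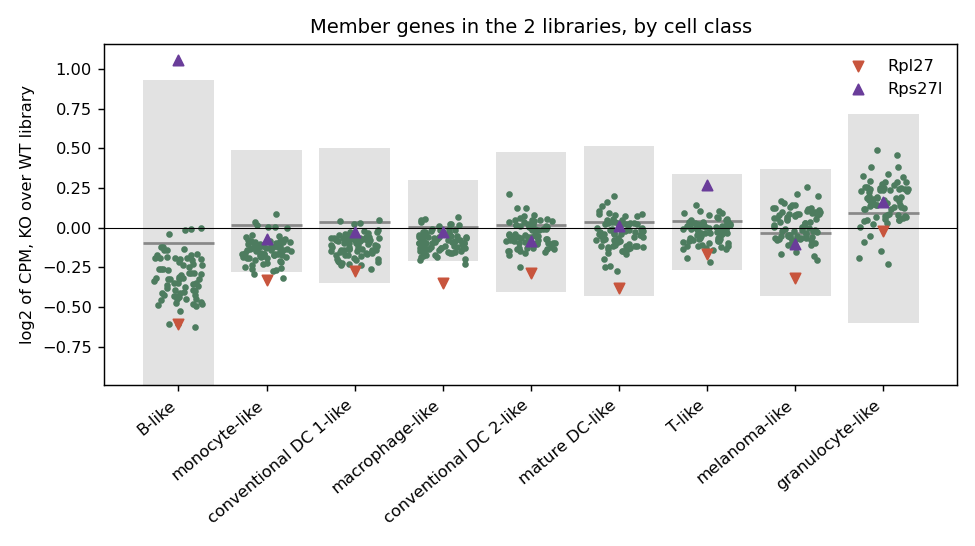
Log2 ratio of CPM in the KO over the WT library for each member at 50 CPM or more in 9 classes (points), with the range from the 5th to the 95th percentile of all genes (grey bars) and their median (grey lines). Rpl27 (downward triangles) lies below 0 in each class shown, and Rps27l (upward triangles) is past 1.2-fold higher in B-like and T-like cells.

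Of the 7 listed ribosomal genes outside the symbol rule, none passed 1.2-fold between the libraries in macrophage-like (6.92% of all genes higher and 2.93% lower) or T-like cells (9.67% and 5.16%). In monocyte-like cells none was higher and 1 was lower, against 13.9% and 5.88% of all genes. In melanoma-like cells 2 were higher and 2 lower, against 9.77% and 15.8% of all genes. In granulocyte-like cells 1 of 6 measured was higher and 2 were lower, against 30.3% and 17.6%. Rpl36al was lower in all 11 classes, with 635 and 555 CPM in macrophage-like cells (-0.19). Rps27rt, a retrogene copy of Rps27 that is not among the 7, was also lower in all 11. It had 105 and 81.9 CPM in macrophage-like (-0.35) and 239 and 186 CPM in T-like cells (-0.36). Rps27 itself was level in macrophage-like cells (0.02), and stood at -0.11 in T-like and -0.08 in monocyte-like cells.

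Of 18 translation factors none passed 1.2-fold in macrophage-like (6.92% of all genes higher and 2.93% lower) or monocyte-like cells (13.9% and 5.88%). Of 17 measured in granulocyte-like cells, 6 were higher and 1 was lower, against 30.3% and 17.6%, before TMM scaling, which shifts this class by -0.25. In macrophage-like cells they ranged from Eif2s2 (391 and 353 CPM, -0.15) to Eef1g (432 and 479 CPM, 0.15), an elongation factor subunit. Between classes they went with the members: 12 of 18 in the WT and 15 of 18 in the KO library were higher in T-like than in macrophage-like cells, against 35.8% and 39.1% of all genes, and 1 was lower. In granulocyte-like cells 16 of 18 were lower, against 50.5% and 48.3%.

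Ribosome biogenesis genes, which make and process ribosomal RNA in the nucleolus, stood lower in the KO library in melanoma-like and B-like cells. In melanoma-like cells 14 of 19 measured genes were lower and none higher, against 15.8% and 9.77% of all genes, with a median of -0.36 against -0.03 for all genes, while the 77 members had a median of 0.00. In the same cells Malat1 stood at 5368 and 8445 CPM and mitochondrial genes at 1.53% and 1.94% of UMIs, and their part in these counts was not tested. In B-like cells 9 of 13 were lower and 1 higher, against 36.8% and 25.4%, with a median of -0.40. The Jchain-high cells supplied 15841 of 255111 (WT) and 72044 of 215708 (KO) B-like UMIs, and their part in this count was not tested. T-like cells went the other way: 2 of 17 were higher and none lower, against 9.67% and 5.16% of all genes, with a median of 0.14 against 0.04. In macrophage-like cells none of 12 passed 1.2-fold, against 6.92% of all genes higher and 2.93% lower. Nop58 was lowest there (76 and 68 CPM, -0.16) and Ncl highest (530 and 595 CPM, 0.17).

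Mitochondrial ribosomal protein genes, which belong to a different ribosome, had other counts than the members in T-like cells and were mostly lower in granulocyte-like cells. In T-like against macrophage-like cells 2 of 42 were higher and 15 lower in the WT library, and 4 of 43 higher and 12 lower in the KO library, where 35.8% and 39.1% of all genes were higher and 37.0% and 34.9% lower. In granulocyte-like against macrophage-like cells 26 of 27 were lower and 1 higher in each library, with medians of -1.61 and -1.64, where 50.5% and 48.3% of all genes were lower and 38.4% and 38.1% higher. Only 10 reached 50 CPM within granulocyte-like cells, against 47 in macrophage-like cells, so many of the 27 passed the filter through the macrophage-like level. Without the filter, all 78 together held 0.29% and 0.31% of granulocyte-like UMIs, against 0.66% and 0.68% in macrophage-like cells. In macrophage-like cells 3 of 47 were higher and 1 lower in the KO library, against 6.92% and 2.93% of all genes, from Mrpl42 (101 and 83 CPM, -0.27) to Mrpl43 (74 and 114 CPM, 0.62).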

How the data were processed

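Live CD45+ cells of B16 tumours were profiled with Chromium single-cell 3′ v3 kits, with 1 library for each genotype. Per the submitters' processing notes, which name Cell Ranger 4.0.0 and mm10, the authors deposited UMI counts per gene and cell as 1 matrix of both libraries. A deposited table gives the library of each barcode.

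Cells with at least 200 genes and at most 10% mitochondrial UMIs were kept. Scrublet's own threshold marked 1 cell in each library, so the cells of highest score were removed instead, at 0.8% per 1000 cells (256 WT and 532 KO). Each cell was assigned to the class with the highest mean marker level (score at least 0.25, margin 0.05 over other lineages). UMIs were summed per class and library and expressed as CPM. Log2 ratios were taken after adding 1 CPM, so changes of weakly expressed genes come out too small, and were restricted to genes whose mean over both libraries reached 50 CPM. A member was called past 1.2-fold, with no test. Shares have exact Clopper-Pearson intervals and ratios of counts exact conditional ones (95%), which cover counting error only.

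Members named are the 5 highest and lowest by level, those at the ends of each comparison, paralogs, stalk and X-linked members. Rps18, Rpl37, Rps12, Rps19, Rpl38 and the non-member Rps27rt were named after their values were seen, and the members with a tract were all listed. Some genes are not reported here. The members and lists were chosen with earlier results of these data known. Alternatives were other filters, depths, denominators, scalings (edgeR 4.0.16) and classes from Leiden clusters (scanpy 1.11.5). Start sequences and coordinates are from RefSeq (GRCm38.p6), the same build as mm10. Free RNA in the droplets was not removed.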

Additional observations from a re-analysis of the deposited data

Results flagged for a closer look

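The share of member UMIs in the KO over the WT library pointed in opposite directions between cell classes: its log2 value was -0.0634 in macrophage-like cells, -0.131 in monocyte-like cells and -0.0288 in T-like cells, and 0.193 in granulocyte-like cells. The difference between the classes was not tested, since each genotype had 1 library. The granulocyte-like value rests on 546 and 233 cells, was -0.0549 with TMM scaling and reached 0.934 among cells of 2000 to 6000 UMIs.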

How the results depend on the processing

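No paired analysis was possible because each genotype had 1 library, and for the same reason no replicate could be left out. With 1 library per genotype the data limit every comparison of WT and KO to a description. Depth is a further limit in small classes such as NK-like (142378 UMIs in the WT library), B-like and granulocyte-like cells. The log2 ratio of the T-like over the macrophage-like share (0.64) and of the granulocyte-like over the macrophage-like share (-1.48) kept their direction under every alternative run. The KO over WT share stayed below 0 in macrophage-like and monocyte-like cells under all 11 alternatives. It reversed in T-like cells with classes from clusters (0.0045) and in granulocyte-like cells with TMM scaling (-0.0549). The cause of the changes below was not tested. Of 163 recomputed values of single members past 1.2-fold, 160 kept their sign, and the exceptions were Rpl13a in granulocyte-like cells (0.30, from 44 and 19 UMIs), at -0.0666 with clusters, -0.00993 with a wider gate margin and -1.01 after thinning to 1000 UMIs. Counts of members below come without a count over all genes, except for TMM scaling, given above. Log2 values of the shares follow in the order T over macrophage, granulocyte over macrophage, and KO over WT in macrophage-like, monocyte-like, granulocyte-like and T-like cells, where they moved.

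Stricter cells (at least 1000 UMIs and at most 5% mitochondrial) gave -1.38 for granulocyte over macrophage, -0.0611 for macrophage-like and 0.31 for granulocyte-like cells, with 49 members higher in the latter in place of 13. Keeping the doublets gave 0.62, -1.21, -0.0579, -0.122, 0.299 and -0.0469, with 50 higher. Means of values per cell gave 0.72, -1.70, -0.0585, -0.124 for monocyte-like and -0.0529 for T-like cells, with 20 higher and small-subunit proportions of 44.7% (macrophage) and 46.7% (T). Clusters gave 0.63, -0.81, -0.0704, -0.117 and 0.0110 for granulocyte-like cells, with 0 higher. The wider margin gave 0.67, -1.80, -0.0600 for macrophage-like, 0.42 for granulocyte-like and -0.0330 for T-like cells, with 61 higher. Thinning gave 0.71, -1.67, -0.125 for monocyte-like, 0.32 for granulocyte-like and -0.0452 for T-like cells, with 45 higher and small-subunit proportions of 44.7% and 46.6%. Cells of 2000 to 6000 UMIs (80 and 29 granulocyte-like cells) gave 0.91, -1.03, -0.0191, -0.124, 0.934 and -0.0398, with 76 higher in granulocyte-like cells, 0 lower in macrophage-like cells in place of 1, and 46.3% small-subunit UMIs in T-like cells. A total without mitochondrial UMIs gave -0.0607 in macrophage-like cells. TMM scaling gave 0.47, -1.18, -0.0731, -0.107, -0.0549 and -0.0407, with 0 members higher in granulocyte-like and 3 lower in monocyte-like cells in place of 5. A total without member UMIs gave 9 lower in monocyte-like cells, and a fold of 1.5 gave 0 in all 3 classes.

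Chosen after seeing the data were granulocyte-like cells under 2000 UMIs (0.16 for KO over WT and -2.02 over macrophage-like cells), B-like cells without Jchain-high cells (-0.15 against -0.32) and TMM scaling of the shares.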
